A study of Ovis aries with 36 samples.

Results

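The genes described here are the chains of the integrins and the laminins. They were taken from the table of 35223 genes by symbol: every integrin alpha chain whose symbol ends in a number or V except ITGA5, the integrin beta chains, and the laminin alpha, beta and gamma chains. ITGA2B, whose symbol ends in B, was thus left out. The rule found 30 genes, of which 11 are integrin alpha chains, 8 integrin beta chains and 11 laminin chains, and all 30 were among the 22488 genes that passed the low-count filter. No gene was found under the symbol LAMB2, so the laminin beta chains here are LAMB1, LAMB3 and LAMB4.

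Integrins are pairs of one alpha and one beta chain that sit in the cell membrane and join the matrix outside to the cytoskeleton within. Laminins are trimers of one alpha, one beta and one gamma chain and form the sheet of the basement membrane on which epithelial cells rest. In stratified epithelia such as that of the rumen, ITGA6 with ITGB4 anchors basal cells at hemidesmosomes to a laminin that contains LAMA3 and LAMB3, while ITGB1 pairs with many alpha chains at other contacts.

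RNA was sequenced in 36 libraries of ovine ruminal epithelial cells, which take up the volatile fatty acids (VFAs) made by fermentation in the rumen. The study asked how the VFA concentration bears on expression around the day. All cells were first kept for 2 h without serum in 100 nM dexamethasone, a glucocorticoid used to set cultured cells to a common phase, and then received a Grain or a Hay medium at pH 7.2. Harvests labelled 24, 28, 32, 36, 40 and 44 h (T0, T4, T8, T12, T16 and T20) gave 3 libraries per medium and time point. The Grain medium held 115.78 mM VFAs in all, with 71.1 mM acetate, 20.1 mM propionate, 16.0 mM butyrate, 1.7 mM valerate, 1.1 mM isobutyrate and 5.3 mM isovalerate. The Hay medium held 89.79 mM in all, with 60.8 mM acetate, 14.6 mM propionate, 9.2 mM butyrate, 1.2 mM valerate, 1.0 mM isobutyrate and 3.0 mM isovalerate. The main acids were added as their sodium salts, so sodium rose with them, and the effects of sodium and of the single acids cannot be told apart. A medium without added VFAs was not analysed here. The labels name no animal, and where nothing says that replicates are separate cultures from separate animals, p-values measure only the spread between these libraries, which may be technical.

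Libraries held 52.4 M to 68.1 M counts each, and replicates of a group correlated at 0.981 to 0.987. Within a group the 30 genes varied by a median of 4.83% (coefficient of variation, range 2.13% to 48.0%). Levels are given as counts-per-million (CPM), scaled between libraries but not by gene length, so that one gene is compared between libraries and no gene is ranked against another. Markers of basal keratinocytes, 7 of 7 tested, summed to 259.5 to 716 CPM in Grain and 253 to 389 CPM in Hay, and those of simple epithelium, 5 of 5, to 142 to 219 CPM and 249.7 to 297 CPM. Of the basal markers 4 were higher and 3 lower in Grain, and of the simple epithelial ones 1 was higher and 4 lower. The 9 fibroblast markers, which are VIM, collagens and others, summed to 19280 to 31710 CPM in Grain and 17560 to 24230 CPM in Hay. Of these 4 were higher and 5 lower in Grain, with a median log2 difference of -0.14. VIM alone had means of 13170 CPM in Grain and 6375 CPM in Hay. The 6 smooth muscle markers summed to 414 to 1036 CPM in Grain and 204 to 1052 CPM in Hay, with 5 higher and 1 lower in Grain, DES having a log2 difference of 3.12. The 6 endothelial markers summed to 6.19 to 10.4 CPM and 7.39 to 11.2 CPM, with 1 higher in Grain, 4 lower and 1 not called. CDH5 was at means of 0.0889 and 0.240 CPM, and PECAM1, the 1 called higher, at 2.32 and 1.05 CPM (log2 difference 1.16). Leukocyte markers summed to 87.1 to 164 CPM and 56.6 to 125 CPM, nearly all from LCP1, with CD3E at 0.0530 and 0.138 CPM. Of 3 Schwann cell markers tested, 2 were lower in Grain and 1 was not called. SOX10, the 1 not called, was at 0.0967 and 0.0712 CPM, and S100B at 14.0 and 33.0 CPM. The part of other cell types in the differences below was not tested. In bulk RNA, fewer cells of a type and less RNA per cell cannot be told apart.

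Averaged over the 6 time points, 14 of the 30 genes were higher and 12 lower in Grain than in Hay by edgeR's quasi-likelihood test at an adjusted p of 0.05, and 4 (ITGB2, ITGB7, LAMA5 and LAMB4) did not pass. Among all genes tested, 37.9% were higher and 43.9% lower, so the share that changed was near the background. The median log2 difference of the 30 genes was 0.09 and that of all genes was -0.07, and the median sizes were 0.51 and 0.49. One gene was called with at least 2-fold more in Grain, ITGA10, and 2 with at least 2-fold less, ITGA4 and LAMA1, against 5.7% and 16% of all genes. For 4 genes (ITGA2, ITGA10, ITGB5 and ITGB6) all 18 Grain libraries lay above all 18 Hay libraries, and for 5 (ITGAV, ITGA4, ITGA9, ITGB8 and LAMC3) all lay below, compared with 15.4% and 11.9% of all genes.

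**Figure D1:**
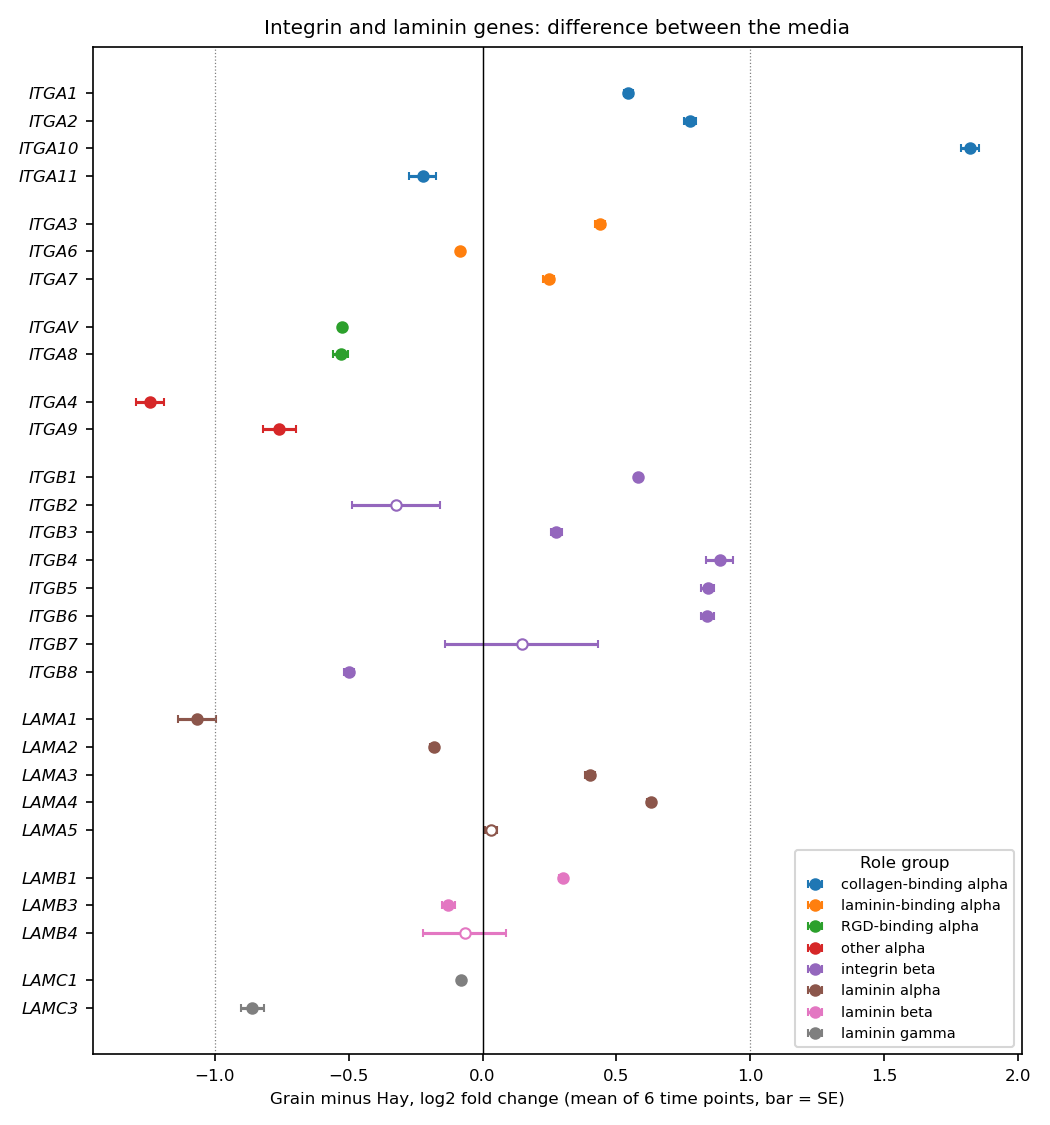
Log2 difference between Grain and Hay (x axis, mean of 6 time points) for 29 integrin and laminin genes, grouped and coloured by role. Bars are standard errors from the fit over 36 libraries, filled points passed an adjusted p of 0.05 and dotted lines mark 2-fold. ITGA10 at 1.82 and ITGA4 at -1.24 lie farthest from 0.

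The collagen-binding alpha chains, which all pair with ITGB1, were 3 higher and 1 lower. ITGA10, a collagen receptor best known from cartilage, ranged from 15.5 to 21.4 CPM in Grain (median 18.7) and from 4.45 to 6.40 CPM in Hay (median 5.30). Every Grain library stood above every Hay library, and the fitted log2 difference was 1.82 ± 0.04 (SE, adjusted p = 3.29e-33). ITGA2, a receptor for fibrillar collagen that also binds laminin, ranged from 69.5 to 91.1 CPM (median 81.9) against 40.5 to 56.2 CPM (median 46.5). Its media did not overlap, with a log2 difference of 0.78 ± 0.02 (adjusted p = 4.29e-28). ITGA1, a receptor for basement membrane collagen, spanned 77.0 to 192 CPM (median 126) and 54.8 to 135 CPM (median 83.0), and these ranges over the whole course overlapped. At each single time point, however, all 3 Grain libraries were above all 3 Hay libraries. Its log2 difference was 0.54 ± 0.02 (adjusted p = 1.17e-26). ITGA1 shares its place with PELO and 3 other genes of the table whose counts came to 53.6% of its own. With those counts added, an alternative chosen after seeing the data, its difference was 0.34. ITGA11, a fibrillar collagen receptor of mesenchymal cells, ran the other way, at 2.81 to 6.74 CPM (median 3.86) in Grain and 3.79 to 6.06 CPM (median 4.98) in Hay. The media overlapped over the course, with all Grain libraries below all Hay libraries at 3 of 6 time points. Its log2 difference was -0.22 ± 0.05 (adjusted p = 0.00014).

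The laminin-binding alpha chains differed among themselves. ITGA3, the partner of ITGB1 in binding epithelial laminins, ranged from 49.9 to 101 CPM in Grain (median 74.4) and from 41.4 to 69.9 CPM in Hay (median 54.8). ITGA7, a laminin receptor of muscle, ranged from 27.2 to 33.8 CPM (median 29.3) and 19.3 to 32.3 CPM (median 25.2). The ranges of both overlapped between media over the course, while within a time point the Grain libraries were all above the Hay libraries at 6 of 6 time points for ITGA3 and at 5 for ITGA7. Both were higher in Grain, by 0.44 ± 0.02 (adjusted p = 1.8e-22) and 0.25 ± 0.02 (adjusted p = 2.78e-13) on the log2 scale. ITGA6, the hemidesmosome alpha chain, ranged from 189.9 to 364 CPM (median 253) in Grain and from 234 to 329.8 CPM (median 265) in Hay. The Hay libraries lay inside the Grain range, and the mean log2 difference was -0.08 ± 0.01 (adjusted p = 1.46e-06).

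Both chains that bind the RGD peptide motif of fibronectin and vitronectin were lower in Grain. ITGAV, which pairs with ITGB1, ITGB3, ITGB5, ITGB6 and ITGB8, ranged from 1226 to 1403 CPM (median 1306) in Grain and from 1775 to 1961 CPM (median 1895) in Hay. No Grain library reached the lowest Hay library, and the log2 difference was -0.52 ± 0.01 (adjusted p = 1.1e-31). ITGA8, a partner of ITGB1, ranged from 18.5 to 26.2 CPM (median 21.2) and 25.4 to 34.6 CPM (median 31.5). Its highest Grain libraries just passed the lowest Hay library, and it differed by -0.53 ± 0.03 (adjusted p = 9.11e-20). Within each of the 6 time points all of its Grain libraries were below all Hay libraries.

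The related chains ITGA4 and ITGA9, which bind fibronectin and other ligands and are best known from leukocytes and from epithelia and muscle, were lower in Grain as well. ITGA4 ranged from 4.23 to 8.00 CPM (median 5.58) in Grain and from 10.1 to 17.2 CPM (median 13.5) in Hay. Its media did not overlap, with a log2 difference of -1.24 ± 0.05 (adjusted p = 2.16e-22). CERKL overlaps ITGA4 and held 33.6% as many counts, and with those added the difference was -0.93, short of 2-fold. Of 7 leukocyte markers, 3 were higher in Grain, 3 lower and 1 not called. LCP1, an actin-bundling protein, had a mean of 119 CPM in Grain and 77.7 CPM in Hay (log2 difference 0.64), and the other 6 stood below 5 CPM in both media. Among these PTPRC, the CD45 antigen, was at 0.373 and 0.872 CPM (-1.29) and CSF1R, a macrophage receptor, at 0.368 and 0.2145 CPM (0.82), both named after their values were seen. ITGA9 ranged from 2.05 to 3.87 CPM (median 3.02) and 3.88 to 6.51 CPM (median 5.15), again apart, with a log2 difference of -0.76 ± 0.06 (adjusted p = 1.07e-13).

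**Figure D2:**
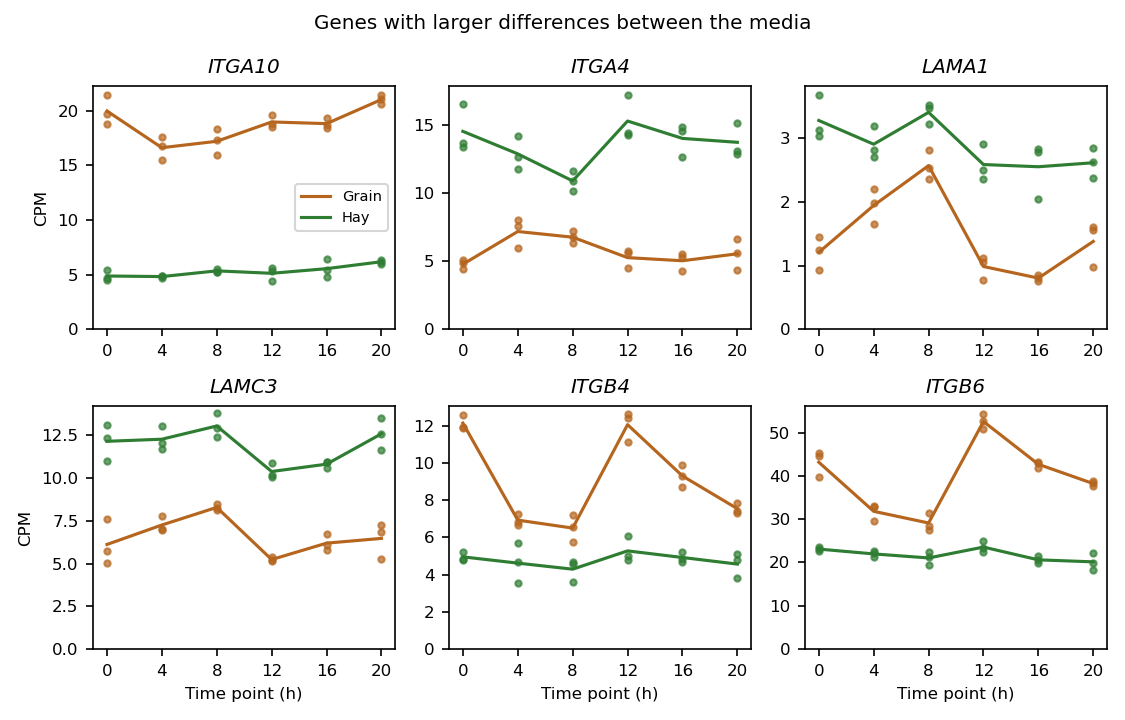
Level in CPM (y axis, from 0) against time point in h (x axis) for 6 genes with larger differences between the media. Points are single libraries (3 per medium and time point) and lines join group means. ITGA10 in Grain stays above 15 CPM throughout and ITGA4, LAMA1 and LAMC3 lie lower in Grain, while ITGB4 and ITGB6 in Grain fall at T4 and T8 and are high at T0 and T12.

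Among the 8 beta chains, 5 were higher in Grain, 1 was lower and 2 did not pass. ITGB1, the common partner of the collagen and laminin receptors, ranged from 1956 to 4044 CPM (median 2823) in Grain and from 1488 to 2434 CPM (median 1867) in Hay. The lower Grain libraries lay within the Hay range, but at each single time point all 3 Grain libraries were above all 3 Hay libraries, and the log2 difference was 0.58 ± 0.01 (adjusted p = 4.89e-31). ITGB5 and ITGB6, partners of ITGAV in binding vitronectin and in activating latent TGF-beta, were higher by nearly equal amounts. ITGB5 ranged from 34.7 to 61.4 CPM (median 46.8) against 20.9 to 33.5 CPM (median 26.0), and ITGB6 from 27.4 to 54.4 CPM (median 39.2) against 18.4 to 25.0 CPM (median 22.1). Neither overlapped between media, and the log2 differences were 0.84 ± 0.02 (adjusted p = 2.64e-28) and 0.84 ± 0.02 (adjusted p = 3.21e-27). ITGB4, the hemidesmosome beta chain, ranged from 5.76 to 12.6 CPM (median 8.29) in Grain and from 3.53 to 6.06 CPM (median 4.79) in Hay. A single Grain library, at T8, lay below the highest Hay library, and the log2 difference was 0.89 ± 0.05 (adjusted p = 2.49e-18). ITGB3, the vitronectin receptor chain of platelets, vessels and bone, ranged from 46.9 to 129 CPM (median 81.4) against 50.9 to 84.1 CPM (median 64.1), with the Hay values inside the Grain range and a log2 difference of 0.28 ± 0.02 (adjusted p = 7.95e-15). At 4 of 6 single time points all of its Grain libraries were above all Hay libraries.

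ITGB8, the other ITGAV partner that activates TGF-beta, was the 1 beta chain called lower. It ranged from 78.7 to 98.0 CPM (median 89.5) in Grain and from 119.7 to 132 CPM (median 124) in Hay. The media did not overlap, and the log2 difference was -0.50 ± 0.02 (adjusted p = 5.5e-24). ITGB2 and ITGB7, beta chains of leukocytes, held 14 to 64 and 0 to 25 counts per library and differed by -0.32 ± 0.16 (adjusted p = 0.0685) and 0.15 ± 0.29 (adjusted p = 0.644). ITGB2 passed as lower with DESeq2 (-0.36, adjusted p = 0.0444). At these depths small differences were not detectable. ITGB7 was called at T8 alone, on 11, 0 and 6 counts in Hay against 21, 12 and 24 in Grain. That call was lost without Grain replicate 1 or 3 or Hay replicate 2 or 3 of T8, with adjusted p up to 0.139.

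The 5 laminin alpha chains were 2 higher, 2 lower and 1 not called. LAMA4, the alpha chain of vessel, muscle and fat basement membranes, ranged from 126 to 308 CPM (median 204) in Grain and 90.7 to 191 CPM (median 129) in Hay. The ranges overlapped across time, yet at every time point the 3 Grain libraries stood above the 3 Hay ones, with a log2 difference of 0.63 ± 0.02 (adjusted p = 6.94e-29). LAMA3, the alpha chain of the hemidesmosome laminin, ranged from 253 to 443 CPM (median 341) and 216 to 281 CPM (median 259), overlapping between media, with a log2 difference of 0.40 ± 0.02 (adjusted p = 2.3e-21). LAMA1, an alpha chain of early embryonic basement membranes, ranged from 0.755 to 2.82 CPM (median 1.35) in Grain and from 2.05 to 3.68 CPM (median 2.84) in Hay. Its overlap came from the T4 and T8 Grain libraries, although within each time point all 3 Grain libraries were below all 3 Hay libraries, and the log2 difference was -1.07 ± 0.07 (adjusted p = 2.55e-16). LAMA2, the chain of muscle and nerve laminin, ranged from 89.8 to 138 CPM (median 111) and 109.5 to 143 CPM (median 128) and overlapped widely, at -0.18 ± 0.02 (adjusted p = 6.7e-13). LAMA5, the most widespread epithelial alpha chain in adult tissue, ranged from 46.3 to 72.4 CPM (median 56.5) and 48.3 to 65.2 CPM (median 56.3), with a difference of 0.03 ± 0.02 (adjusted p = 0.195).

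Of the beta laminin chains, LAMB1, found in most basement membranes, ranged from 358 to 728 CPM (median 509.7) in Grain and from 332.2 to 509.7 CPM (median 412) in Hay. The ranges over the course overlapped, all 3 Grain libraries were above all 3 Hay libraries at each time point, and the log2 difference was 0.30 ± 0.01 (adjusted p = 1.12e-21). LAMB3, the beta chain of the hemidesmosome laminin, ranged from 33.1 to 51.0 CPM (median 39.6) and 38.7 to 51.5 CPM (median 44.3), at -0.13 ± 0.02 (adjusted p = 9.66e-06). LAMB3 overlaps 4 genes, among them HSD11B1 and TRAF3IP3, which held 49.8% as many counts, and with them added the difference was 0.02 (adjusted p = 0.306), so the direction of LAMB3 is uncertain. LAMB4, a little-studied chain, held 10 to 48 counts per library and differed by -0.07 ± 0.16 (adjusted p = 0.698).

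Among the gamma chains, LAMC1, part of most laminins, ranged from 541 to 1005 CPM (median 704) and 557 to 1036 CPM (median 741), nearly the same span, with a log2 difference of -0.08 ± 0.01 (adjusted p = 7.74e-08). LAMC3, a gamma chain of skin, nerve and reproductive tissue, ranged from 5.02 to 8.46 CPM (median 6.79) against 10.1 to 13.8 CPM (median 11.9). It did not overlap, with a log2 difference of -0.86 ± 0.04 (adjusted p = 5.28e-20).

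The make-up of the counts in each class differed between media. These shares and ratios are of counts, not scaled by length, and were described without a test. ITGB8 made up 2.92% ± 0.554 (SD over all time points, n = 18) of the integrin beta counts in Grain and 5.93% ± 0.827 in Hay, and ITGAV 67.9% ± 3.31 and 77.6% ± 1.98 of the alpha counts of the genes described. The ratio of ITGB1 to ITGAV counts ran from 1.60 to 2.92 (median 2.19) in Grain and from 0.838 to 1.27 (median 0.977) in Hay, without overlap. The ratio of ITGB8 to ITGB6, alternative partners of ITGAV, ran from 1.77 to 3.27 (median 2.24) in Grain and 5.13 to 6.71 (median 5.70) in Hay, also apart. Within the hemidesmosome laminin, LAMA3 stood at 7.11 to 9.26 times the LAMB3 counts in Grain (median 8.51) and 5.19 to 6.09 times in Hay (median 5.86), and every Grain library was above every Hay library, with the overlap of LAMB3 named above.

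**Figure D3:**
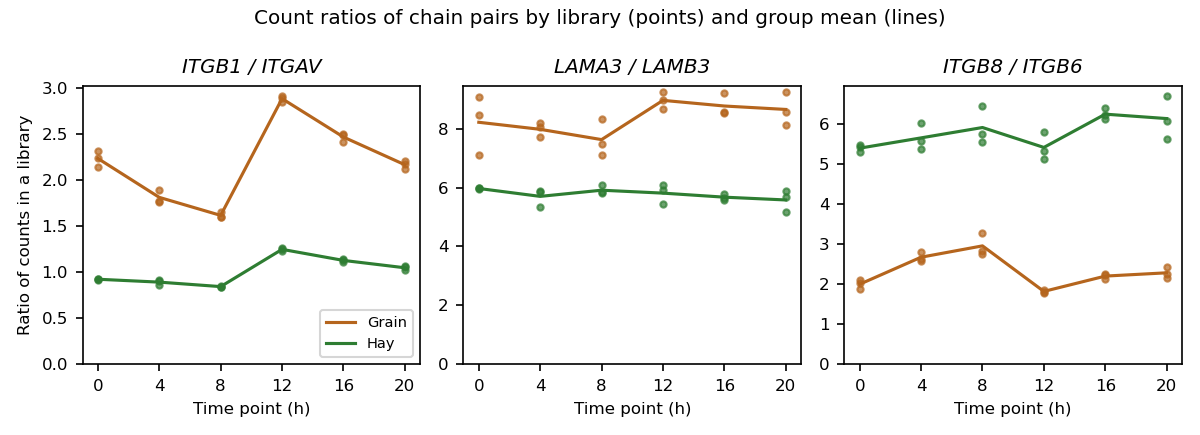
Ratios of raw counts within a library (y axis, from 0) against time point in h (x axis) for 3 pairs of chains. Points are libraries and lines join group means. Grain lies above Hay at every time point for ITGB1 to ITGAV, which reaches 2.92 in Grain at T12, and for LAMA3 to LAMB3, and below Hay for ITGB8 to ITGB6.

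At single time points, the genes called higher and lower in Grain were 14 and 11 at T0 (31.6% and 31.2% of all genes), 12 and 12 at T4 (29.9% and 27.9%), 13 and 9 at T8 (29.5% and 27.2%), 16 and 7 at T12 (30.7% and 33.6%), 15 and 8 at T16 (30.2% and 32.5%) and 14 and 11 at T20 (29.7% and 29.2%). Scaling with DESeq2 size factors gave 12 higher and 14 lower at T8, where LAMB1 was then no longer called (adjusted p = 0.0938). In the calls as first given, 11 genes were higher and 6 lower at all 6 time points, or 36.7% and 20%, against 21% and 18% of all genes. Calls in both directions at different time points were made for 3 genes, ITGA6, LAMA5 and LAMB3, or 10%, against 3.76% of all genes. LAMA5 was lower at T4 (-0.15) and higher at T12 (0.14) and T16 (0.16), and each of these calls was lost without 1 library: Grain T4 replicate 3 or Hay T4 replicate 1 (adjusted p up to 0.156), Grain T12 replicate 2 or Hay T12 replicate 1 or 3 (up to 0.0982), and replicate 3 of Grain or Hay T16 (up to 0.172). The T8 call of LAMA1, one of the 6 lower throughout, was lost without replicate 1 or 2 of Grain T8 or 2 or 3 of Hay T8 (up to 0.111). ITGA6 was lower in Grain at T8, at 199, 194 and 189.9 CPM against 239, 244 and 234 CPM (log2 difference -0.30, adjusted p = 1.63e-09), and higher at T12, at 348, 364 and 354 CPM against 309, 323 and 329.8 CPM (0.15, adjusted p = 0.000281). The groups did not overlap at either time point.

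The difference between media depended on time for 19 of the 30 genes, or 63.3%, against 32.6% of all genes tested (F test of 5 contrasts). The 30 genes were more deeply counted than most, with a median of 3021 counts per library against 352 for all genes tested, and the part of depth in that share was not tested. Highest and lowest here follow the sign of Grain minus Hay, not the size of the gap. For ITGAV, lower in Grain throughout, the highest value (-0.47, at T12) was thus the smallest gap. ITGA6 and LAMB3 had a larger gap at T8 than at T12. Among the 19, the signed difference was highest at T12 for 10 and lowest at T8 for 9, or 52.6% and 47.4%. Of the 7322 genes of the whole table whose difference depended on time, 27.2% and 31.9% were so. It was highest at T8 for 4, or 21.1%, against 30.8%. These counts are a description with no test. LAMA3 had the smallest p (adjusted p = 1.32e-13). Its T8 libraries held 276, 253 and 255 CPM in Grain and 273, 276 and 267 CPM in Hay, which overlapped. At T12 they held 427, 443 and 443 CPM in Grain and 235, 248 and 238 CPM in Hay, far apart. The log2 difference went from -0.06 ± 0.04 at T8 (-0.10 with DESeq2 size factors, adjusted p = 0.0498) to 0.86 ± 0.05 at T12. LAMB3, with the overlap named above, went from -0.42 ± 0.06 at T8 to 0.24 ± 0.06 at T12 (1.02e-07), so that both it and LAMA3 had their lowest difference at T8 and their highest at T12.

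Some integrin chains also had a higher difference at T12 than at T8. ITGB3 was at 48.3, 53.0 and 46.9 CPM in Grain at T8 and at 124.5, 124 and 129 CPM at T12, and its log2 difference was -0.08 ± 0.05 (adjusted p = 0.173, or -0.13 and 0.0361 with DESeq2 size factors) at T8 and 0.60 ± 0.05 (adjusted p = 4.17e-13) at T12. ITGB6 was at 31.5, 27.4 and 28.5 CPM in Grain against 22.3, 21.3 and 19.5 CPM in Hay at T8, and at 50.7, 54.4 and 52.6 CPM against 22.4, 23.3 and 25.0 CPM at T12. Both media were higher at T12, Grain with a ratio of means of 1.805 and Hay of 1.12, and the difference went from 0.47 ± 0.06 to 1.16 ± 0.06. ITGB4 also had a larger difference at T12 (1.19) than at T8 (0.60), though its largest was at T0, and stood at 6.50 ± 0.716 CPM (SD, n = 3) at T8 and 12.1 ± 0.809 CPM at T12 in Grain, and 4.30 ± 0.595 and 5.28 ± 0.686 CPM in Hay. By the signed difference, other chains ran the other way. ITGA7 had its difference highest at T8 (0.49 ± 0.05) and lowest at T12 (0.04 ± 0.05). ITGA4 went from -0.69 at T8 to -1.54 at T12 and ITGA9 from -0.32 to -1.15. Each had its highest signed difference at T8, where its gap between the media was smallest, and a wider gap at T12.

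**Figure D4:**
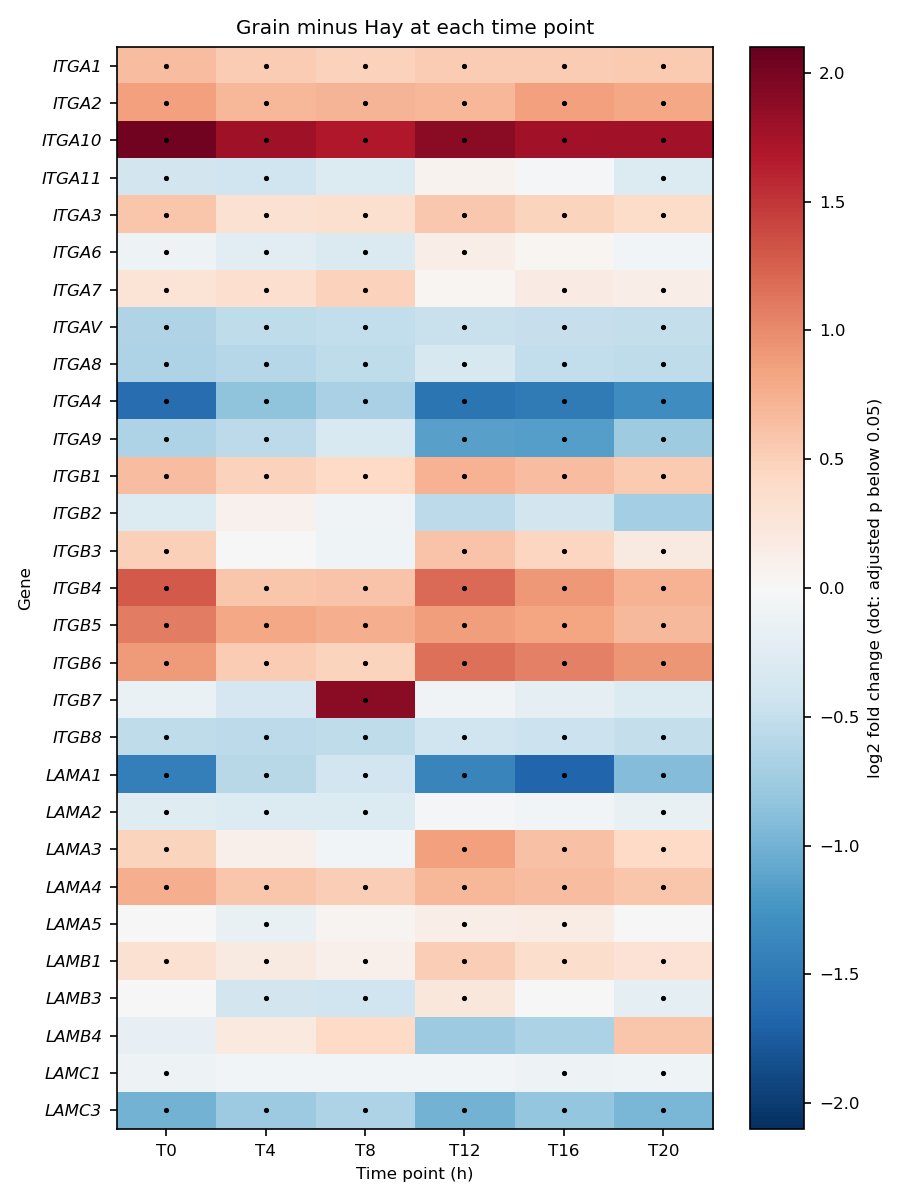
Fitted log2 difference between Grain and Hay (colour, red higher in Grain) for 29 genes (rows) at each time point (columns). Dots mark an adjusted p below 0.05. Rows such as LAMA3, ITGB3 and ITGB6 are palest at T4 and T8 and darkest at T12, and ITGB7 stands out at T8 alone.

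Most of these genes differed between time points. Some difference between time points was called for 27 of 30 genes in Grain and 22 in Hay, against 51.5% and 35.2% of all genes, with 22 called in both media, 5 passing in Grain only, which does not show that the media differ, and 0 in Hay only. Leaving out 1 library gave 26 to 28 genes in Grain and 18 to 23 in Hay. The part of the deeper counts of these genes in the shares was not tested. In Grain 16 genes had their lowest group mean at T8 and their highest at T12, against 16.3% of all genes tested. In Hay 17 did, against 13.2%. These adjacent harvests were singled out after their values were seen, so the counts are a description with no test. Total counts were 55.2 M to 68.1 M in the T8 libraries and 60.05 M to 65.2 M in the T12 libraries. ITGB1 went from 2102, 2055 and 1956 CPM at T8 to 3996, 4044 and 3982 CPM at T12 in Grain, and from 1563, 1488 and 1521 CPM to 2354, 2427 and 2434 CPM in Hay. In both media every T12 library was above every T8 library, with ratios of the means of 1.97 and 1.58. LAMC1 went from 543 ± 2.46 to 975 ± 26.8 CPM (SD, n = 3) in Grain and from 565 ± 9.23 to 1013 ± 21.0 CPM in Hay, ratios of 1.80 and 1.79, and its difference between media was not called as depending on time (adjusted p = 0.698). ITGA1 had ratios of 2.44 and 2.37, and LAMA4 2.31 and 2.04. The difference of ITGA1 between media was not called as depending on time (adjusted p = 0.319). With the counts of its overlapping genes added, it was (0.00585). ITGB3 had a larger ratio in Grain, 2.54, than in Hay, 1.58. From T12 the means of ITGB1, ITGA1, LAMA4, LAMC1 and ITGB3 were lower at T16 and lower again at T20 in both media.

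**Figure D5:**
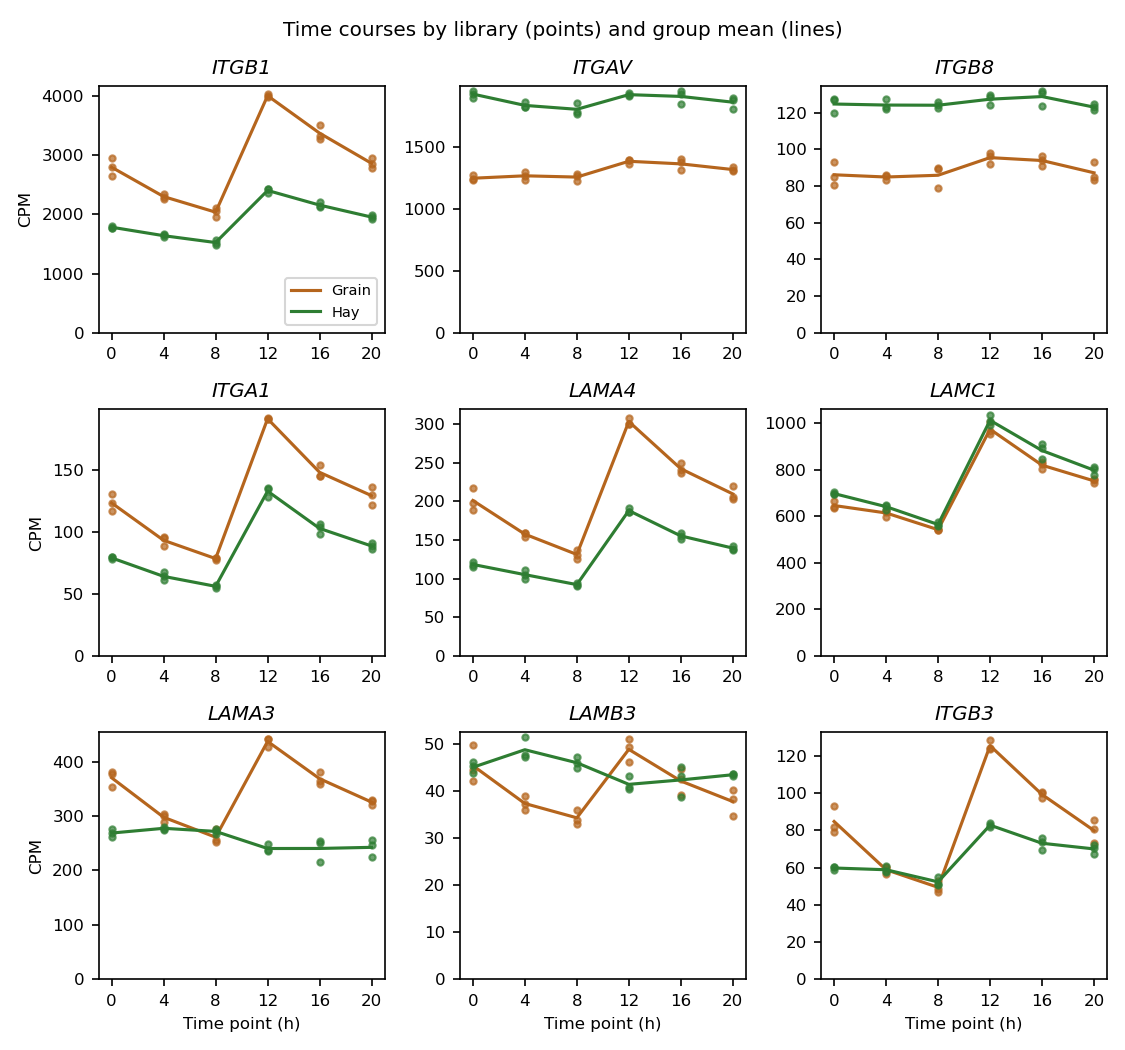
Level in CPM (y axis, from 0) against time point in h (x axis) for 9 genes in Grain and Hay. Points are libraries and lines join the means of 3. ITGB1, ITGA1, LAMA4, LAMC1 and ITGB3 are lowest at T8 and highest at T12 in both media, LAMA3 and LAMB3 are so in Grain but at their lowest at T12 in Hay, and ITGAV and ITGB8 stay within narrow ranges.

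Some chains ran against this pattern. LAMA1 in Grain was highest at T8, at 2.36, 2.54 and 2.82 CPM, and low at T12, at 1.12, 1.06 and 0.782 CPM. These groups did not overlap, and the mean at T12 was 0.383 of that at T8. LAMC3 in Grain was at 8.24, 8.46 and 8.16 CPM at T8 and 5.39, 5.19 and 5.14 CPM at T12, and in Hay at 12.4, 13.8 and 12.9 CPM and 10.9, 10.1 and 10.2 CPM. Every T12 library was below every T8 library in both media, although the test over time points did not pass in Hay (adjusted p = 0.0508). LAMA3 and LAMB3 had ratios of T12 to T8 of 1.68 and 1.43 in Grain and of 0.884 and 0.900 in Hay. For LAMB3 the call of a difference between time points in Hay (adjusted p = 0.0121) was lost with overlapping genes summed (0.073) and without Hay T4 replicate 1 (0.0793). ITGAV and ITGB8 moved little, their highest group mean being 1.11 and 1.13 times the lowest in Grain and 1.07 and 1.05 times in Hay.

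A cosine of 24 h period was fitted to each medium, although the harvests span only 20 h, less than 1 cycle, and a step between adjacent harvests is not a smooth wave. It was called for 22 of the 30 genes in Grain and 8 in Hay, against 31.8% and 20.7% of all genes, with all 8 called in both. Here too the part of depth was not tested. In Grain the calls of ITGA7 (adjusted p up to 0.105, without any one of 10 libraries), ITGA4 (up to 0.0697, without Grain T4 replicate 1 or 3 or T16 replicate 3), ITGB5 (up to 0.057, without Grain T4 replicate 1 or 2) and ITGA10 (0.0501, without Grain T8 replicate 1) were lost on leaving out 1 library. The fitted peak lay between 14.3 and 16.3 h for 19 of the 22 in Grain, the others being ITGA10, ITGA4 and LAMA1, and between 15.5 and 16.1 h for the 8 in Hay (ITGA1, ITGA3, ITGA7, ITGB1, ITGB5, LAMA4, LAMB1 and LAMC1). Among all genes called, 37.4% in Grain and 49.6% in Hay peaked in the window from 14 to 17 h that holds these values. The window was set around these values, so the shares are a description with no test. ITGA1 had an amplitude of 0.45 ± 0.09 (log2, SE) with a peak at 16.0 ± 0.759 h in Grain and of 0.47 ± 0.09 with a peak at 15.6 ± 0.735 h in Hay. LAMA1 in Grain had an amplitude of 0.65 ± 0.11 and a peak at 5.20 ± 0.642 h. The 24 h component differed between the media for 3 genes, or 10%, near the 11.3% of all genes. They were LAMA3 (adjusted p = 0.0081), ITGA4 (0.0266) and ITGA9 (0.039). The ITGA9 call was lost on leaving out any one of 18 libraries, and that of ITGA4 on leaving out Grain T4 replicate 1 or 3 or Hay T8 replicate 2 or 3 (adjusted p up to 0.0558), or on adding the counts of CERKL (0.0669).

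Partner genes were taken from lists of what integrins and laminins are known to bind. Their counts stand against 37.9% of all genes higher and 43.9% lower in Grain. All differences given are means over the 6 time points. The difference depended on time for 5 of 7, 15 of 26, 6 of 16, 5 of 8 and 8 of 12 genes of the lists, in the order below, against 32.6% of all genes. The genes named include the 4 of each list with the smallest p, among those of at least 5 CPM in a medium. Of 7 hemidesmosome genes, 6 were higher and 1 lower, with a median log2 difference of 0.66 against -0.07 for all genes. The mean differences of KRT5 and ERBIN, both among the 6, were small, at 0.07 and 0.105. Both depended on time by the F test of 5 contrasts (adjusted p = 3.06e-15 and 2.57e-05). COL17A1, the hemidesmosome collagen, was at 128 ± 31.5 CPM (SD, n = 18) in Grain and 74.1 ± 15.3 CPM in Hay (0.77 ± 0.02 on the log2 scale). CD151, a tetraspanin bound to laminin receptors, and KRT14, a basal keratin, were higher by 0.72 and 0.74, and DST, which links hemidesmosomes to keratin and overlaps other genes, was lower at -0.63. Of 26 adaptor and signalling genes tested, 21 were higher and 5 lower, with a median of 0.38. FLNA, an actin crosslinker that binds beta chain tails, was at 629 ± 146 CPM in Grain and 251 ± 79.2 CPM in Hay (1.35 ± 0.02), and VCL, vinculin, was higher by 0.61. TNS4, a tensin that binds beta tails, was at 7.35 ± 1.58 CPM against 28.1 ± 2.48 CPM (-1.96 ± 0.04), and FERMT1, the kindlin of epithelia, was lower at -1.69 and overlaps another gene.

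Among 16 other basement membrane genes, 4 were higher, 10 lower and 2 not called, with a median of -0.13. SPARC, a collagen-binding matrix protein, was higher by 0.57, HSPG2 by 0.40, and the collagen chains COL4A1 by 0.31 and COL4A2 by 0.24. The collagen chains COL4A3 (-1.26), COL4A4 (-0.62) and COL7A1 (-0.94), the last being the anchoring fibril collagen, were lower. Of 8 laminin receptors that are not integrins, 3 were higher, 3 lower and 2 not called, with a median of 0.025. DAG1, dystroglycan, differed by 0.08 and BCAM by -0.14, while RPSA and SGCB, both overlapping other genes, differed by 0.48 and -0.55. Of 12 genes of integrin traffic and membrane partners, 6 were higher, 4 lower and 2 not called, with a median of 0.12. CD47, which associates with ITGAV and ITGB3, was lower at -0.64 and NRP1, which overlaps another gene, at -0.69, and CD63 and LRP1 were higher by 0.65 and 0.68.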

How the data were processed

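The deposited table holds whole-number counts per gene for 36 libraries, made by the authors from paired reads of an unstranded TruSeq RNA v2 library, per the labels' protocols. The submitters' processing notes name the tools HISAT2 2.2.1, SAMtools 1.20 and also StringTie 2.1.5. Which of them made the counts, which genome build served and whether strand was used is not given in the sources used here, so reads of overlapping genes cannot be told apart. RefSeq gene names of ARS-UI_Ramb_v3.0 served for names and overlaps, and all 30 genes matched.

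All genes passing filterByExpr (minimum count 10, minimum total 15, 12 groups) were fitted together in R 4.3.3 with edgeR 4.0.16 (limma 3.58.1): TMM scaling, 12 group means, quasi-likelihood tests and Benjamini-Hochberg adjustment over all genes tested at 0.05. A second model had a mean, cosine and sine of 24 h period per medium. Scripts were tested on simulated data. Alternatives were DESeq2 1.42.0, its size factors, no filter, a replicate block, a linear trend, each time point alone, leaving out each library, and summed overlapping genes. The members and lists were chosen with earlier results of these data known. Counts are over all 30 genes, 1 of which is not reported singly here. Of the other 29, those described by library are those with a mean of at least 5 CPM in a medium, a called 2-fold difference, a called time dependence or an extreme value of their role group. Replicates differed beyond counting noise (chi-square over degrees of freedom 4.86 to 25.7 in 36 pairs).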

Additional observations from a re-analysis of the deposited data

Results flagged for a closer look

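The difference between the media itself differed between time points, by the test of that dependence in edgeR's quasi-likelihood fit, for the 18 genes given here. Among the integrin alpha chains the adjusted p was 0.00213 for ITGA3, 8.58e-09 for ITGA6, 6.38e-05 for ITGA7, 0.019 for ITGAV, 9.89e-05 for ITGA4 and 0.00799 for ITGA9. For the beta chains it was 3.73e-06 for ITGB1, 3.42e-10 for ITGB3, 0.00203 for ITGB4, 0.00485 for ITGB5 and 3.43e-08 for ITGB6. For the laminin chains it was 0.000149 for LAMA1, 0.000179 for LAMA2, 1.32e-13 for LAMA3, 0.00747 for LAMA4, 0.0168 for LAMA5, 1.36e-07 for LAMB1 and 1.02e-07 for LAMB3. The call of LAMA5 was lost without Grain T4 replicate 3 (adjusted p = 0.0612), and that of ITGAV without replicate 2 or 3 of Grain T0 or replicate 1 or 2 of Hay T0 (up to 0.0826).

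The 24 h component was called as different between the media for ITGA4 (adjusted p = 0.0266), ITGA9 (0.039) and LAMA3 (0.0081). In Grain the fitted peak of LAMA3 was at 16.3 ± 0.972 h, and in Hay its 24 h component was not called (adjusted p = 0.183).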

How the results depend on the processing

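For the mean difference over time, 28 of 30 genes kept their call, or stayed uncalled, in all 41 alternatives, ITGB2 and LAMB3 being the exceptions. Of the uncalled, LAMA5 ran from -0.001 to 0.04 and LAMB4 from -0.125 to 0.013, so the sign of neither is settled. ITGB2 passed with DESeq2 (-0.36, adjusted p = 0.0444), among others. Summed with overlapping genes, an alternative chosen after seeing the data, LAMB3 turned to 0.022 (adjusted p = 0.306) and genes lower by at least 2-fold numbered 1 in place of 2. At T8, 14 genes in place of 9 were lower with DESeq2 and 14 with its size factors, and LAMB1 was no longer called higher (adjusted p = 0.0722 and 0.0938). The different 24 h component was called for 7 genes with DESeq2 and 8 with a linear trend, in place of 3, and for 4343 of all genes with the trend in place of 2550. Leaving out 1 library gave 1 to 6, with 1 without Hay T8 replicate 2, 6 without Grain T20 replicate 1, and 5 without Grain T0 replicate 1 or Grain T20 replicate 3. Same-numbered libraries of the media correlated at -0.237 to 0.319 in their deviations, over 0.1 in 2 of 18 pairs, so the numbers were not taken as pairs. With a replicate block 14 genes were higher, 12 lower, 19 depended on time and 3 had a different 24 h component, and 389 of 390 single calls were the same, LAMA3 at T4 passing at 0.0489. Of 14040 calls with 1 library left out, 86 were lost, 79 gained and 0 reversed. Chain shares per coding length were not run. Depth limits ITGB2, ITGB7 and LAMB4, at 0 to 64 counts per library.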
